A study of Mus musculus with 12 samples.

Results

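The genes that release calcium inside the skeletal muscle fibre and take it up again were followed through 12 Affymetrix Murine 430 2.0 arrays of total RNA from liver and quadriceps muscle, 3 arrays for every combination of tissue and genotype (4 groups). They were chosen by name: Ryr1, Cacna1s, Atp2a1, Atp2a2, Casq1, Casq2, Pvalb, Sln, Jph1 and Trdn. These 10 genes had 23 probe sets with a single gene symbol, of 45037 analysed, and the array measured 18193 genes in all. Control animals were C57BL/6 mice, called WT or control in the labels. Mutant animals were C57BL/6 mice carrying a PGC1beta mutation that the study's title calls hypomorphic. PGC-1beta, encoded by Ppargc1b, is a coactivator that raises transcription of genes of mitochondria and of lipid metabolism. The labels and design text read here state neither the allele nor the age or sex of the mice, and do not say that each sample came from its own mouse. The p-values therefore measure only how far these samples spread, which may be technical variation.

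In a skeletal muscle fibre an action potential runs into the transverse tubules, where the voltage sensor Cacna1s mechanically opens the ryanodine receptor Ryr1 in the facing membrane of the sarcoplasmic reticulum. Calcium that calsequestrin had buffered in the store then floods the myofilaments, and SERCA pumps return it, with parvalbumin acting as a soluble calcium buffer in fast fibres. Fast fibres use the pump Atp2a1 and the calsequestrin Casq1. Slow fibres and heart use the pump Atp2a2, and the calsequestrin Casq2 is found in both. An isoform of Atp2a2 serves the endoplasmic reticulum of most cell types, liver included.

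Values below are intensities as the authors deposited them, on a linear scale, and levels of different probe sets are not compared with each other. Group values are means ± SD over 3 arrays. Differences are mutant minus control on the log2(intensity + 16) scale after quantile normalisation within tissue, each with a standard error (SE). Adjusted p-values are limma's, by the Benjamini-Hochberg method across every gene tested, at a threshold of 0.05. The offset of 16 understates changes of dim probe sets. A gene is represented by its probe set with the highest mean over the 12 arrays, and was tested in a tissue where its mean exceeded the 40th percentile over all probe sets. In bulk tissue, fewer cells of a type and less RNA per cell cannot be told apart.

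The tissue labels were borne out by their markers. The summed intensity of 7 skeletal muscle markers, among them Ckm and Acta1, ran from 49859 to 52098 in control muscle and from 50610 to 51892 in mutant muscle, against 91.5 to 174 over the liver arrays. Hepatocyte markers (6 matched, Alb among them) summed to 62169 to 69425 in liver and to 228 to 628 in muscle. Array medians ran from 20.1 to 22.3 in muscle and from 27.2 to 40.1 in liver, and pairs of arrays had a correlation of 0.962 to 0.971 within muscle and 0.941 to 0.960 within liver. RNA quality was read from the 3′ to 5′ signal ratio of the control probe sets for Actb, Gapdh and Pcx, averaged on the log2 scale. It overlapped between the groups in muscle (0.40 to 0.52 in controls, 0.33 to 0.56 in mutants) whereas in liver mutants 1 and 3 stood at 1.90 and 1.87, above the other 4 arrays, mutant 2 included, between 0.50 and 0.97.

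Start regions of 6 of the 10 genes were matched in RefSeq (GRCm38.p6), giving 7 promoters of 300 bases (2 of them for Pvalb), 250 before the annotated start and 50 after it. As examples, chosen after the matches were found, 4 of the 7 are printed 5′ to 3′ on the gene's own strand: 2 that hold the E-box CAGCTG (Atp2a1 and Casq1) and the 2 that hold a MEF2 match (Casq2 and Pvalb). Capitals mark matches, on either strand, to the E-box CANNTG, which myogenic factors bind, or to the MEF2 motif.

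Atp2a1, chr7:126463024-126463323, minus strand: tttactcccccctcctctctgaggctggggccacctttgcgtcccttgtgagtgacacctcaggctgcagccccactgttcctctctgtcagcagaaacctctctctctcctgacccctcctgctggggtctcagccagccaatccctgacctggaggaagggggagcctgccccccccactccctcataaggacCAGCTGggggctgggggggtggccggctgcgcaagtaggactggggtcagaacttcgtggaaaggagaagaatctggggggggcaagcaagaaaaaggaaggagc
Casq1, chr1:172219846-172220145, minus strand: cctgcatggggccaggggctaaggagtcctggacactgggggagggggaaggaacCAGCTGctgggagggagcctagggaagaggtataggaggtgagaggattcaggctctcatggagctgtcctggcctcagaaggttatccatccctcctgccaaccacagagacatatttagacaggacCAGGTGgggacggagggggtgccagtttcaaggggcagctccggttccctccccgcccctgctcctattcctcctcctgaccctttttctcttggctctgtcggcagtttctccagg
Casq2, chr3:102086165-102086464, plus strand: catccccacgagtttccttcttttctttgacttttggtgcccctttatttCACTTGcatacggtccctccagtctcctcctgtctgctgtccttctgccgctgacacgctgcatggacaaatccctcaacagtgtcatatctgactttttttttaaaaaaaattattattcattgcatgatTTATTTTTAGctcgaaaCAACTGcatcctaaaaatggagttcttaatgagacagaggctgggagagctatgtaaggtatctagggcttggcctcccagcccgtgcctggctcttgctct
Pvalb, chr15:78206351-78206650, minus strand: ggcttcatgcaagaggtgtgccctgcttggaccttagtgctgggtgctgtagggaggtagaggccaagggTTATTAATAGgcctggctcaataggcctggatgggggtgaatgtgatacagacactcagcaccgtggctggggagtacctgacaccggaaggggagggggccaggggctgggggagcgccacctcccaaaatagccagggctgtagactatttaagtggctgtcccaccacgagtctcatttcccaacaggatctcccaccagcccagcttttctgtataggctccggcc

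An E-box CANNTG was found in 5 of the 7 promoters, against 72.3% of all 32851 promoters of that length, and its form CAGCTG, a subset of those matches, in 3 of 7 against 16.3%. The CAGCTG matches lay in the promoters of Cacna1s, Atp2a1 and Casq1, that of Atp2a1 from position -55 to -50 relative to the start. A MEF2 match was found in 2 of 7, those of Casq2 (-69 to -60) and Pvalb (-180 to -171), against 3.19% of all promoters. The promoter of Ryr1 held none of the motifs searched. None of the 7 held the CArG box (1.63% of all promoters) or the oestrogen-related receptor element TNAAGGTCA (1.28%), searched because those receptors are partners of the PGC-1 coactivators. These matches describe letters in a window and do not show binding.

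No calcium gene passed the test in mutant muscle. All 10 were above the filter there, 0 of 10 passed limma's test and 0 had an unadjusted p under 0.05, where 0.0152% of the 13131 genes tested passed (Iigp1 and BC023105, both higher) and 4.26% had an unadjusted p under 0.05. Of the 10 differences 6 were above and 4 below 0, from -0.04 for Atp2a1 to 0.18 for Cacna1s, with a median of 0.05 beside -0.0002 over all genes tested; Casq1 and Trdn turned above 0 with the values as deposited, and Casq1, Trdn and Pvalb with median centring. The smallest unadjusted p among them was 0.189, for Jph1, and the adjusted p-values lay between 0.994 and 1.00. Control and mutant arrays overlapped in all 10 genes, while 9.54% of all genes tested had no overlap. Of the 23 probe sets 20 were tested on their own, 9 with a difference above 0 and 11 below, from -0.21 to 0.18, and 0 passed, where 0.00740% of all probe sets did.

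**Figure D1:**
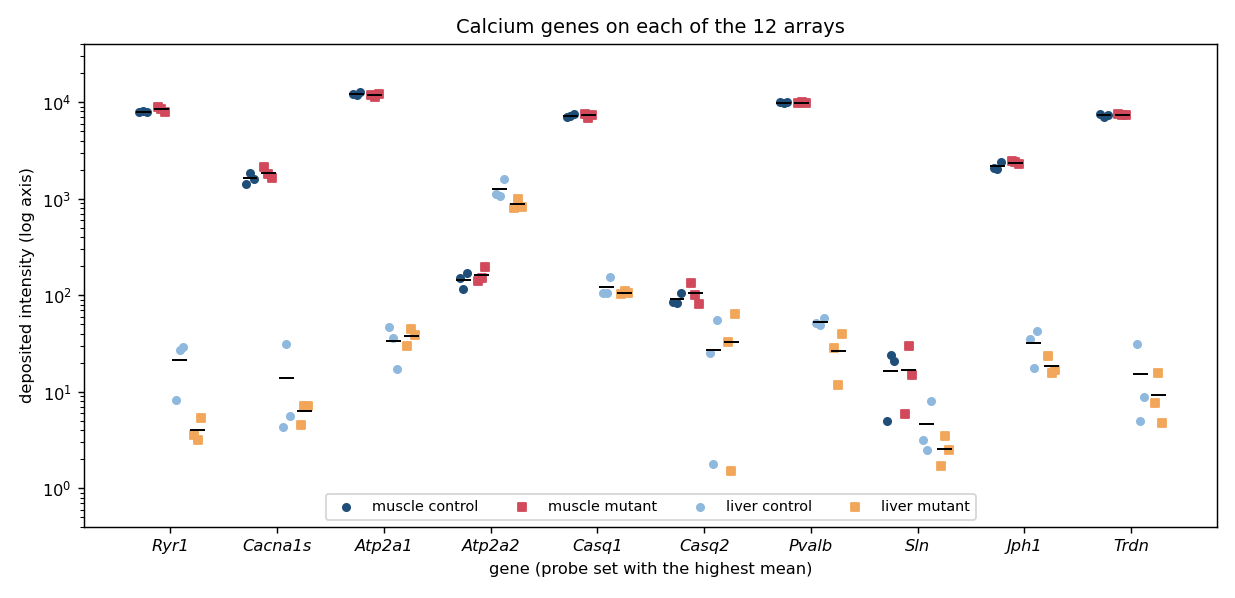
Deposited intensity (log axis) of the 10 calcium genes on each of the 12 arrays, by the probe set with the highest mean; points are arrays, black lines the means of 3 arrays. Control and mutant muscle overlap for every gene. Atp2a2 is the gene whose probe set is brighter in liver, and its 3 liver mutants, from 809 to 999, lie below the 3 liver controls, from 1059 to 1615.

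The release machinery was abundant in both genotypes. Ryr1, the calcium release channel, read 7939, 8170 and 7862 in controls 1, 2 and 3 and 8960, 8521 and 7875 in mutants 1, 2 and 3. Mutants 1 and 2 stood above every control, and mutant 3 lay among them. Its log2 difference was 0.08 (SE 0.07, 95% interval -0.08 to 0.24, adjusted p = 0.994). The other Ryr1 probe set gave 5465 ± 212 in controls and 5476 ± 850 in mutants, a difference of -0.01 (SE 0.12), and was highest in mutant 1 (6197) and lowest in mutant 3 (4538). The mutants had the same order in both probe sets, which had r = 0.82 over the 6 muscle arrays, given as a description. The first probe set had means of 7990 ± 160 in controls and 8452 ± 546 in mutants. In both probe sets the SD of the mutants was larger than the difference between the group means.

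Cacna1s, the pore and voltage sensor of the dihydropyridine receptor, had the largest difference of the 10. It read 1422, 1854 and 1588 in controls and 2129.6, 1813 and 1628 in mutants. Only mutant 1 stood above all controls. The difference was 0.18 (SE 0.14, 95% interval -0.13 to 0.49, adjusted p = 0.994). Leaving out single arrays gave 0.06 without control 1, 0.10 without mutant 1 and 0.31 without control 2, none past the threshold. Over the 6 muscle arrays Cacna1s and Ryr1 followed each other with r = 0.82, given as a description of arrays that share their normalisation.

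Jph1 and Trdn build the junction that holds these channels together. Jph1, junctophilin, bridges the tubule and reticulum membranes and read 2074.5, 2019 and 2385 in controls and 2436, 2376 and 2271 in mutants. Control 3 lay above 2 of the 3 mutants. The difference was 0.12 (SE 0.09, 95% interval -0.07 to 0.32, adjusted p = 0.994). Its dimmer probe set pointed the other way, with 447 ± 68.8 in controls and 442 ± 98.8 in mutants (-0.06, SE 0.17).

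Trdn, triadin, anchors calsequestrin to the ryanodine receptor and had 6 probe sets. The brightest read 7617, 7051 and 7347 in controls and 7447, 7415 and 7421 in mutants, so that the 3 mutants lay inside the range of the controls (-0.02, SE 0.06, 95% interval -0.16 to 0.11, adjusted p = 0.997). A neighbouring probe set, 1426144_x_at, was the only tested probe set of the 10 genes in muscle whose groups did not overlap, with 5797, 5511 and 5783 in controls and 5969, 5807 and 6053 in mutants. That is 1 of 20 tested, where 9.69% of all probe sets tested had no overlap, and its difference was 0.08 (SE 0.06, unadjusted p = 0.228, adjusted p = 0.989 over all probe sets). Probe set 1451801_at varied widely between arrays. It read 197, 247 and 405 in controls and 166, 266 and 519 in mutants, highest in the array numbered 3 of each group. Those 2 arrays also had the highest 3′ to 5′ averages in muscle, 0.52 and 0.56 against 0.33 to 0.41 in the other 4, whose part in the pattern was not tested.

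**Figure D2:**
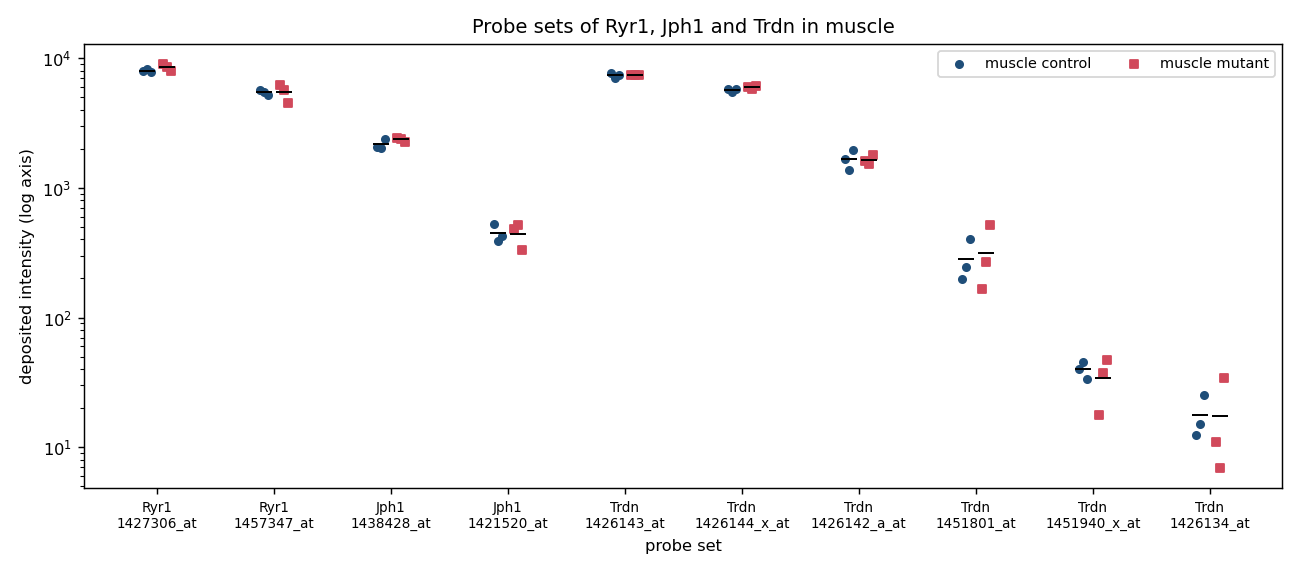
Deposited intensity (log axis) of the 10 probe sets of Ryr1, Jph1 and Trdn on the 3 control and 3 mutant muscle arrays; points are arrays, black lines group means. The brightest probe sets of Ryr1 and Trdn have tightly grouped arrays. Within the mutants, Ryr1 1457347_at runs from 4538 to 6197 and Trdn 1451801_at from 166 to 519.

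The calsequestrins hold calcium in the store. Casq1, which buffers calcium inside the reticulum, read 7050.5, 7170 and 7490.1 in controls and 7601, 6898 and 7423 in mutants. The mutants held both the highest and the lowest value. Its difference was -0.03 (SE 0.06, 95% interval -0.17 to 0.10, adjusted p = 0.997). Casq2, the cardiac and slow-fibre form, read 84.2, 83.4 and 106 in controls and 136, 101 and 81.2 in mutants. Mutant 1 was the highest array and mutant 3 the lowest. The difference was 0.15 (SE 0.18, 95% interval -0.25 to 0.56, adjusted p = 0.995), and without mutant 1 it was 0.01.

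The genes of uptake and buffering include the fast-fibre pump and parvalbumin. Atp2a1, the SERCA1 pump, read 12011, 11949.9 and 12631 in controls and 11784, 11379.5 and 12092 in mutants. The groups overlapped, with mutants 1 and 2 below every control. Its difference was -0.04 (SE 0.05, 95% interval -0.16 to 0.07, adjusted p = 0.995). Pvalb, parvalbumin, read 9947, 9677.5 and 10069.8 in controls and 9793, 10024 and 9856 in mutants. All 3 mutants lay within the range of the controls (-0.01, SE 0.05, 95% interval -0.13 to 0.11, adjusted p = 0.999). Quantile normalisation gives genes at the top ranks the same value on several arrays, so the standard errors of the brightest genes partly reflect ranks. Atp2a1 was set to 13.57 on 4 of the 6 muscle arrays and to 13.51 on the other 2 (log2 scale), and Casq1 took 3 distinct values. With the values as deposited the difference of Atp2a1 was -0.05 (limma adjusted p = 0.999).

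Sln, sarcolipin, a small membrane peptide that inhibits the SERCA pumps, was barely detectable. Its brighter probe set read 5.0, 24.0 and 20.6 in control muscle and 5.9, 29.5 and 14.9 in mutant muscle, around the array medians of 20.1 to 22.3. Each group held 1 array near 5 and others well above it. The interval of its difference was therefore the widest, -0.78 to 0.81 around 0.01 (SE 0.36, adjusted p = 1.00). Sln was also the only gene of the 10 whose log2 range over the 6 muscle arrays exceeded 1 (1.19). The genes whose normalised values followed it most closely there, by Pearson correlation, were Rhbdf2 (0.99), Slc25a2 (0.99), Gm10336 (0.98), Plcb1 (0.98) and Mapk8ip2 (0.98). All were dim, with at most 78.1 on any muscle array. They were picked as the highest of the 13131 genes tested over only 6 arrays, so these correlations do not show shared regulation.

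**Figure D3:**
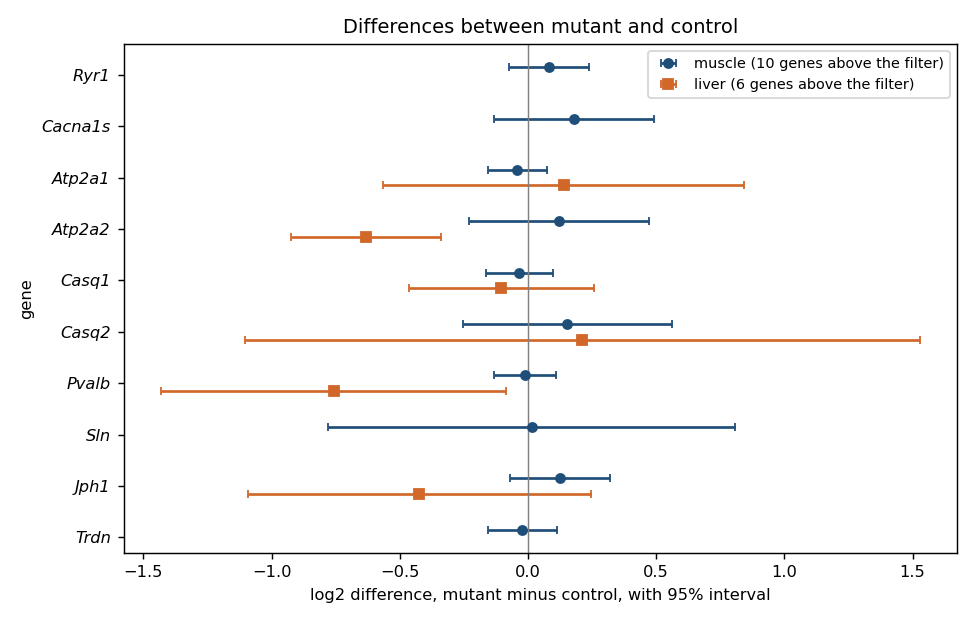
Log2 difference between mutant and control, with 95% intervals from limma, for the 10 genes in muscle (circles) and the 6 above the filter in liver (squares). All muscle intervals cover 0. In liver the interval of Atp2a2 runs from -0.92 to -0.34.

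Atp2a2, the SERCA2 pump, was among the 6 calcium genes above the filter in both tissues. It was the only one of the 10 whose representative probe set was brighter in liver. In muscle its representative probe set, 1427250_at, read 149.8, 117 and 168 in controls and 141, 150.1 and 196 in mutants. The groups overlapped there (0.12, SE 0.16, 95% interval -0.23 to 0.47, adjusted p = 0.995). In control liver the same probe set read 8.73 times its level in control muscle, comparing means of 1266 ± 304 and 145 ± 26.1 as deposited. The ratio depended on the probe set: 1427251_at was likewise 3.54 times as bright in control liver, whereas 1416551_at read 318 ± 45.1 in control liver and 357 ± 36.5 in control muscle. The forms of the Atp2a2 transcript that its 6 probe sets read were not determined. The tissues were scaled by the authors in a way that is not stated, so these ratios carry no test.

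In mutant liver Atp2a2 fell in the fit described above, a call that most alternatives did not keep. Probe set 1427250_at read 1124, 1059 and 1615 in liver controls 1, 2 and 3 and 809, 999 and 827 in liver mutants 1, 2 and 3. All mutants lay below all controls, mutant 2 by the least. The difference was -0.63 (SE 0.13, 95% interval -0.92 to -0.34, adjusted p = 0.0331), a fold of 0.645. It was the only call among the 6 calcium genes tested in liver, where 3.35% of 13326 genes passed and 1.03% passed with a lower level in mutants. Of the 6 genes 2, Atp2a2 and Pvalb, had an unadjusted p under 0.05 and no overlap between the groups, both with mutants below. Over all genes tested in liver 19.6% had such a p, 24.0% had no overlap and 11.0% had all mutants below.

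The other tested probe sets of Atp2a2 in liver also had negative differences, without passing. All 5 tested had lower means in mutants, 1 passed among all probe sets (1427250_at, adjusted p = 0.0444), and in 3 the normalised groups did not overlap. Of all probe sets 2.05% passed in liver and 22.3% had no overlap. Probe set 1416551_at read 322, 271 and 361 in controls and 203, 279.9 and 212 in mutants. There mutant 2 was above control 2 as deposited (-0.42, SE 0.16, adjusted p = 0.202 over all probe sets). Probe set 1427251_at gave -0.42 (SE 0.20, adjusted p = 0.298), 1452363_a_at -0.67 (SE 0.33, adjusted p = 0.326) and 1437797_at -0.18 (SE 0.33, adjusted p = 0.838). These probe sets read the same RNA extracts and are not replicates of the difference.

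The liver call for Atp2a2 was not stable. Removing control 1, 2 or 3 gave an adjusted p of 0.0910, 0.0774 or 0.0949. Removing mutant 1 or 3 gave 0.154 or 0.0929, while removing mutant 2 gave 0.0269, and the differences ran from -0.70 to -0.56. When both arrays with high 3′ to 5′ ratios (mutants 1 and 3) were removed, the difference was -0.49 (adjusted p = 0.529), the remaining mutant being assumed to vary like the controls. With that ratio as a covariate it was -0.42 (adjusted p = 0.637). With the mean of all Atp2a2 probe sets it was -0.36 (adjusted p = 0.248), the smallest difference of the alternatives run. With the values as deposited it was -0.50 (adjusted p = 0.241) and with median centring -0.51 (adjusted p = 0.120). Over these and the other alternatives the adjusted p ranged from 0.0269 to 0.637. The summed intensity of 8 macrophage markers was 1861 to 2072 in liver controls and 2715 to 3011 in mutants. Of the 8, 2 passed, Tyrobp and Lyz2, both higher, beside 3.35% of all genes tested in liver. Lyz2 read 248 to 305 in controls and 599 to 853 in mutants. Of the 8 differences 7 were above 0, and that of Csf1r was -0.07. In mutant 1 Csf1r (673) and C1qb (170) read below every control, the lowest of which were 741.5 and 202. On the normalised scale hepatocyte markers had negative differences in 6 of 6, as small as -0.01 for Ttr and Apoa1. As deposited, Alb, Apoa1, Ttr and Cyp2e1 had higher means in mutants, that of Apoa1 14197 against 13120 in controls. The summed intensity of the list overlapped, at 62169 to 69425 in controls and 66549 to 67532 in mutants. Only 1 hepatocyte marker of 6 passed, beside 1.03% of all genes tested in liver that passed with a lower level in mutants. Tat, tyrosine aminotransferase, read 5444.5, 5373 and 6732 in controls and 3068, 5039.9 and 4491 in mutants (-0.75, SE 0.17, limma adjusted p = 0.0429). The part of both lists in the Atp2a2 result was not tested.

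**Figure D4:**
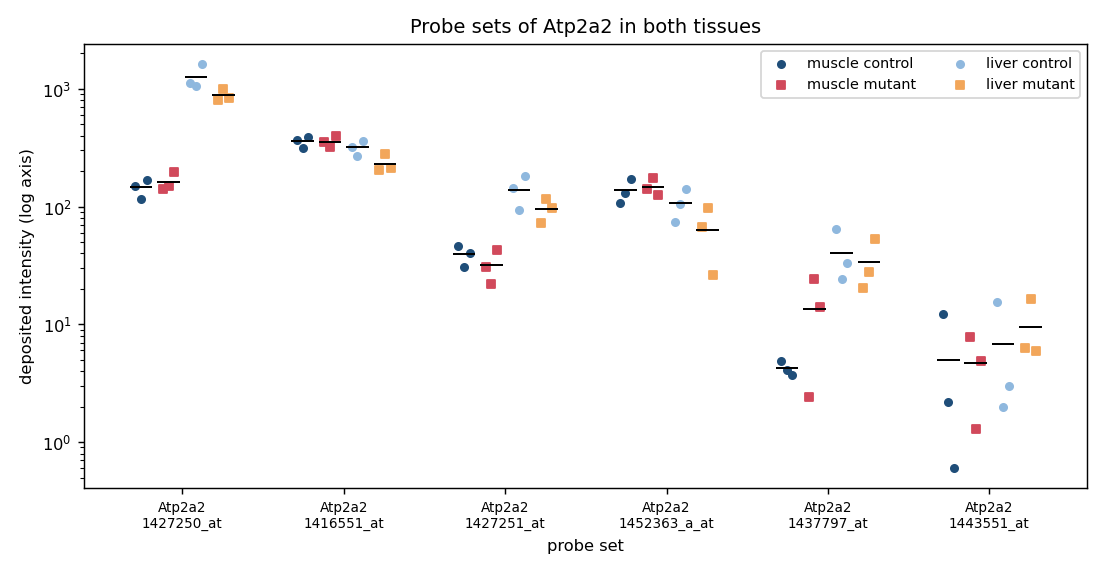
Deposited intensity (log axis) of the 6 Atp2a2 probe sets in muscle and liver; points are arrays, black lines group means. Liver mutants lie below liver controls in 1427250_at, while muscle controls and mutants overlap in all 6.

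Among the other calcium genes in liver, 4 (Ryr1, Cacna1s, Sln and Trdn) were below the filter and were not tested. Pvalb read 52.0, 49.2 and 58.4 in controls and 28.1, 11.7 and 39.9 in mutants, all mutants below all controls (-0.76, SE 0.30, unadjusted p = 0.0306, adjusted p = 0.200). These are intensities near the array medians of liver. The difference ran from -0.99 without mutant 3 to -0.46 without mutant 2, and over the other alternatives from -1.46 with the 3′ to 5′ covariate to -0.38 with an offset of 64, never past the threshold. Jph1 (-0.42, SE 0.30), Casq1 (-0.10, SE 0.16), Atp2a1 (0.14, SE 0.32) and Casq2 (0.21, SE 0.59) had adjusted p-values from 0.495 to 0.889. The muscle genes were near the floor of the liver arrays: Ryr1 read 3.2 to 29.4, Cacna1s 4.3 to 31.4 and Trdn 4.8 to 31.6 over the 6 liver arrays, each by the probe set that represents it. Casq1 read 105 to 154 in liver controls and 102 to 112 in mutants, far from its 6898 to 7601 in muscle.

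The response of the tissues was compared by the interaction term over all 12 arrays for the 6 genes above the filter in both. None passed, against 1.42% of 11841 genes, and 3 had an unadjusted p under 0.05, as did 15.5% of all genes tested. The muscle effect minus the liver effect was 0.75 for Atp2a2 (SE 0.20, 95% interval 0.32 to 1.18, unadjusted p = 0.00213, adjusted p = 0.0898). It was 0.75 for Pvalb (SE 0.27, adjusted p = 0.198) and 0.55 for Jph1 (SE 0.22, adjusted p = 0.227). The value for Jph1 depended on the probe set: its other one, 1421520_at, gave -0.19 for the difference between tissues and 0.13 in liver, and the mean of both gave 0.18 for the difference between tissues. A lower Atp2a2 level in mutant liver was thus not shown to differ from its course in muscle at the threshold.

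Other genes of calcium handling were read from 3 lists. Of 25 genes of the release apparatus 23 were tested in muscle, 0 passed and 0 had an unadjusted p under 0.05, with a median difference of -0.02. Jsrp1, which binds calsequestrin and the voltage sensor, stood at 0.21 (SE 0.10, unadjusted p = 0.0648), and Cacnb1, the beta subunit of the voltage sensor, at -0.30 (SE 0.16, unadjusted p = 0.0846). Fkbp1b, which binds ryanodine receptors, stood at 0.51 (SE 0.27, unadjusted p = 0.0862). It was dim, at 17.8, 4.2 and 22.4 in controls and 25.8, 28.3 and 23.3 in mutants, around the muscle array medians of 20.1 to 22.3. None of the 3 approached the threshold after adjustment (adjusted p = 0.994 for each). The normalised groups of 2 of the 23, Cacna2d1 and Fkbp1b, did not overlap, both with mutants above, beside 9.54% of all genes tested.

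Of 18 genes of calcium uptake and extrusion 15 were tested in muscle and 0 passed, with a median of -0.05. Letm1, a cation exchanger of the inner mitochondrial membrane, read 242, 239 and 253 in controls and 196, 192 and 206 in mutants. Its groups did not overlap, and its difference was -0.31 (SE 0.12, unadjusted p = 0.0233, adjusted p = 0.994). It was 1 of 15 with an unadjusted p under 0.05, beside 4.26% of all genes tested. The normalised groups of 3 of the 15, Letm1, Pln and Smdt1, did not overlap, all with mutants below, beside 9.54% without overlap in either direction over all genes tested. Pln, phospholamban, which inhibits SERCA2, was dim, at 30.9 to 39.0 in controls and 22.0 to 25.4 in mutants (-0.29, SE 0.19, adjusted p = 0.994). Smdt1, a subunit of the mitochondrial calcium uniporter, stood at -0.14 (SE 0.09, adjusted p = 0.994).

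Of 20 genes of calcium sensing 17 were tested in muscle and 0 passed, with a median of 0.01. Rcan2, a regulator of the phosphatase calcineurin, read 442, 405 and 397 in controls and 244, 277 and 400.0 in mutants. As deposited, mutants 1 and 2 were well below the controls and mutant 3 lay among them. After normalisation all 3 mutants lay below all controls (-0.47, SE 0.16, unadjusted p = 0.0155, adjusted p = 0.994). The normalised groups of 2 of the 17 did not overlap, Rcan2 with mutants below and Nfatc3 with mutants above, beside 9.54% of all genes tested. Camk2d stood at -0.30 (SE 0.17) and Rcan1 at -0.21 (SE 0.16), both with an adjusted p of 0.994.

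**Figure D5:**
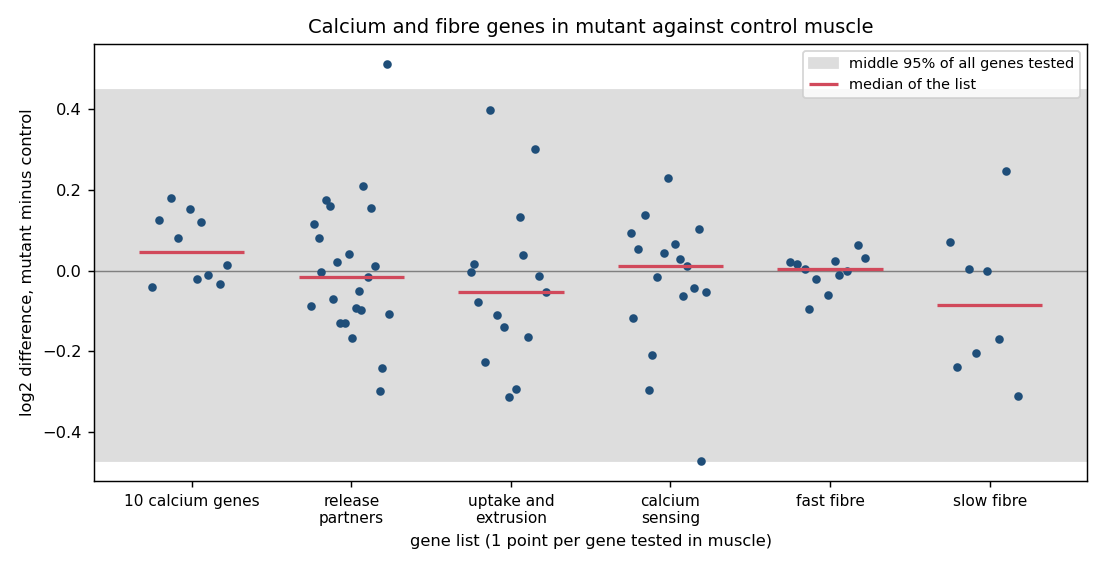
Log2 difference between mutant and control muscle for each gene tested in the 10 calcium genes, 3 further calcium lists and 2 fibre lists; red lines are list medians, and the grey band holds the middle 95% of all genes tested, from -0.47 to 0.45. List medians lie between -0.09 and 0.05. The highest point, at 0.51, is Fkbp1b, a dim gene that read 4.2 to 28.3 in muscle.

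Fibre type sets which of these genes a muscle uses, so contractile isoforms were read beside them. Of 11 fast-fibre genes all were tested in muscle and 0 passed (0 with an unadjusted p under 0.05), with differences from -0.09 to 0.06. Myh1 and Myh4, fast myosin heavy chains, stood at -0.09 (SE 0.07) and -0.06 (SE 0.06), and the fast troponin gene Tnni2 at 0.03 (SE 0.05). Myh2, the myosin heavy chain of oxidative fast fibres, varied far more between arrays than these and was singled out after its values were seen. It read 2044, 1899 and 1252 in controls and 3486, 5001 and 321 in mutants. Mutants 1 and 2 stood above every control and mutant 3 below every control, so its difference of 0.06 had a 95% interval of -1.72 to 1.85 (SE 0.80, adjusted p = 0.999 by limma). Its part in the spread of the calcium genes between arrays was not tested. Of 9 slow-fibre genes 8 were tested, 0 passed and 0 had an unadjusted p under 0.05, with a median of -0.09. The slow myosin gene Myh7 was not detectable above the dim end of the arrays, at 4.3 to 15.3 in controls and 5.7 to 13.1 in mutants. Myl3 (-0.31, SE 0.18), Tnnt1 (0.25, SE 0.24) and Tpm3 (-0.20, SE 0.22) had the smallest p-values of the list. The normalised groups did not overlap in 1 of the 8, Myl3, with mutants below, and in 0 of the 11 fast-fibre genes. Over all genes tested 9.54% had no overlap. Summed intensities overlapped between the genotypes, at 100692 to 106228 and 100822 to 105763 for the fast list and 3349 to 3759 and 3221 to 4041 for the slow list. Most of the slow sum was Mybpc1, at 2950 to 3338 in controls and 2793 to 3642 in mutants. That sum therefore says little about the dimmer slow-fibre genes.

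Sums of the markers of other cell types did not separate the muscle groups, though a few single markers did. Summed intensities overlapped between control and mutant for adipocyte (1842 to 2865 and 2103 to 3136), macrophage (887 to 1214 and 774 to 1438), endothelial (673 to 855 and 692 to 851) and fibroblast markers (9745 to 20608 and 15523 to 28590). They also overlapped for smooth muscle, nerve, satellite cell, blood and heart lists. Pdgfra, a fibroblast marker, read 140 to 162 in controls and 168 to 236 in mutants, S100b, a Schwann cell marker, 7.3 to 16.2 and 20.3 to 23.2, and Myl4, an atrial light chain, 31.7 to 43.3 and 10.5 to 26.4, each without overlap. The normalised groups did not overlap in 1 of 6 fibroblast, 1 of 4 nerve and 1 of 3 heart markers tested. There were 0 such genes among 8 macrophage, 7 endothelial, 5 adipocyte, 5 satellite cell, 4 smooth muscle and 3 blood markers. Over all genes tested 9.54% had no overlap. The median difference was 0.45 over 5 adipocyte markers (4 higher) and 0.32 over 6 fibroblast markers (5 higher), beside -0.0002 over all genes tested. No gene of these marker lists passed in muscle. An unadjusted p under 0.05 was found for 2, beside 4.26% of all genes tested. They were Pdgfra at 0.32 and Myl4 at -0.73, both with a limma adjusted p of 0.994. In the heart list Actc1, which skeletal muscle also expresses, read 7930 to 9957, while the atrial genes Nppa and Myl7 were at most 26.7. Fibroblast markers were lowest in control 2 and highest in mutant 3, and the part of these markers in the results was not tested.

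Over the 6 muscle arrays the 10 calcium genes did not move as a block. Of their 45 pairs 3 had a correlation above 0.7 and 3 below -0.7, and 31 lay within 0.5 of 0. The highest were Ryr1 with Cacna1s (0.82) and Casq2 with Jph1 (0.75). Of the 3 below -0.7, 2 were with Atp2a1, whose normalised level took only 2 values, and are not read further. These values describe 6 arrays whose levels were set by a shared normalisation and whose bright genes spanned log2 ranges as narrow as 0.06.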

How the data were processed

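Affymetrix Murine 430 2.0 arrays of liver and quadriceps RNA, 3 per group, gave linear intensity values per probe set, which the authors deposited. The summarising algorithm and scaling: not given in the sources used here. The series' design text names d-Chip for clustering only. The table held 45101 probe sets, of which 64 Affymetrix controls were set aside. A single gene symbol was listed for 34945, several for 932 (not named) and none for 9160; 34741 symbols were updated through Entrez identifiers.

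From these values log2(value + 16) was computed, quantile-normalised within tissue and fitted with limma 3.58.1 in R 4.3.3 (moderated variance with an intensity trend, 4 residual degrees of freedom per tissue). The difference between tissues was an interaction term over 12 arrays, with 8 residual degrees of freedom. Fits were tested on simulated data. Figures used matplotlib 3.10.9 in Python 3.11.15.

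The genes and lists were chosen with earlier results of these data known. Of other calcium and fibre genes the text names those with the 3 smallest p-values per calcium or fibre list and others as examples chosen after their values were seen. Same-numbered arrays were not taken as pairs. Alternatives were offsets of 1 and 64, no filter, values as deposited, median centring, a fit with no variance trend, averaging a gene's probe sets, every probe set, a replicate block, a 3′ to 5′ covariate, a fit of 12 arrays and leaving out arrays. The number of arrays limits the precision.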

Additional observations from a re-analysis of the deposited data

How the results depend on the processing

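Calcium genes called in muscle stayed at 0 under every alternative run, as did those called for the difference between tissues. In liver Atp2a2 was the only call, and 0 calcium genes passed with the values as deposited, median centring, a fit with no variance trend, averaging a gene's probe sets, the 3′ to 5′ covariate, or without liver mutants 1 and 3 together; leaving out each array gave 0 to 1. With a replicate block for the sample number, a number the labels do not tie to a shared mouse or day, 0 passed in liver (Atp2a2 -0.63, adjusted p = 0.0823), and no other calcium gene changed its call. Deviations of controls and mutants with the same number correlated with r of 0.04, 0.09 and 0.20 in muscle and of -0.01, -0.12 and -0.03 in liver. Pairs with different numbers had r from -0.16 to 0.09 in muscle and from -0.08 to 0.11 in liver. The cause of the lost liver calls was not tested.

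Over all genes, 2 were called in muscle, 0 without a variance trend, 1 with the mean of probe sets, 1 with a fit of 12 arrays and 1 to 2 with an array left out. In liver 447 were called, 222 without a filter, 297 as deposited, 0 without a variance trend, 171 with the mean of probe sets, 11 with a replicate block, 2 with the covariate, 0 without mutants 1 and 3 together and 0 to 741 with an array left out. For the difference 168 were called, 58 without a filter, 57 as deposited, 58 with median centring, 0 without a variance trend, 85 with the mean of probe sets, 26 with a replicate block, 1 with the covariate and 12 to 393 with an array left out.

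Of the recomputed differences of calcium genes 362 kept their sign and side of the threshold, 12, those of Atp2a2 in liver, kept their sign and no longer passed, and 19 changed sign, none of them called. In muscle Ryr1 turned to -0.0065 with an offset of 1, where the choice of the brightest probe set passed to its other one (with the same probe set kept, an alternative chosen after seeing the data, it was 0.08). Casq1 turned to 0.0132 as deposited and 0.0261 with median centring, Trdn to 0.0182 and 0.0311, and Pvalb to 0.012 with median centring. Leaving out an array moved Sln between -0.29 and 0.29, Trdn between -0.0447 and 0.0076 and Pvalb between -0.0288 and 0.0044 in muscle, Casq2 between -0.28 and 0.84 and Atp2a1 between -0.19 and 0.31 in liver. For the difference it moved Casq2 between -0.69 and 0.43 and Atp2a1 between -0.35 and 0.15. Casq2 was -0.67 in liver with the covariate, and for the difference 0.76 with it, 0.0391 as deposited and 0.0568 with median centring.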
